A study of Mus musculus with 24 samples.

Results

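Igf1, Igfals and the binding protein genes Igfbp1, Igfbp2, Igfbp3 and Igfbp4 were examined across mouse primary hepatocyte cultures on Affymetrix MoGene 2.0 ST arrays. These 6 genes were taken by symbol, from 22180 genes with a probe set of their own, and each was read by 1 probe set. The values are log2 levels as deposited, so a difference of 1 is a doubling, and a level of 1 gene is not set against that of another.

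The cells came from male C57Bl6J mice, and each of the 3 experiments used hepatocytes pooled from 3 mice. They received an adenovirus with a short hairpin RNA against Foxa2 (shFOXA2.3, written shFOXA2 here) or against lacZ, a bacterial gene absent from mouse cells (shlacZ), at a multiplicity of infection (MOI) of 5. Treatment lasted 4 h and consisted of insulin at 1 nM or glucagon at 100 nM. GW4064, a compound that activates the bile acid receptor FXR, was added to these at 2 µM, and DMSO, its solvent, served as the control. All groups shared a medium with 100 nM dexamethasone, a glucocorticoid, and no group lacked both hormones, and raised levels with glucagon cannot be told apart from lowered levels with insulin. Hairpin, hormone and drug made 8 groups of 3 arrays, 1 from each experiment, 24 arrays in all. Within an experiment the arrays share their pool of cells, and technical replicates had been pooled within each sample.

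Igf1 encodes insulin-like growth factor 1, which the liver makes in response to growth hormone and releases into the blood. The IGF binding proteins hold IGF in the circulation and control its access to the IGF1 receptor. Igfbp3 and Igfals encode the binding protein and the acid labile subunit of the ternary complex that carries most circulating IGF, whereas Igfbp1 encodes a short-lived binding protein that rises in fasting and whose transcription insulin represses through an insulin response element read by FOXO factors. FOXA2, the target of the hairpin, is a forkhead factor of hepatocytes that can bind related DNA letters.

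The sequences upstream of Igfbp1 and Igf1 are shown because these were the genes whose level differed with the hormone in the test over all conditions. Each is the stretch of 250 bases before the start site in RefSeq (build GRCm38.p6, plus strand), at chr11:7197537-7197786 for Igfbp1 and chr10:87860861-87861110 for Igf1. Capitals mark the forkhead core TGTTT on the opposite strand, which reads AAACA here, and the insulin response core CAAAACAA.
Igfbp1: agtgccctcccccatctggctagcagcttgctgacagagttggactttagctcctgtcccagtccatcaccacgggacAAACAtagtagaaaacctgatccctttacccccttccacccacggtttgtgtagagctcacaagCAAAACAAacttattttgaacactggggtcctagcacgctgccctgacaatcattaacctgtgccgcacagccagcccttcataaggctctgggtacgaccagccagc
Igf1: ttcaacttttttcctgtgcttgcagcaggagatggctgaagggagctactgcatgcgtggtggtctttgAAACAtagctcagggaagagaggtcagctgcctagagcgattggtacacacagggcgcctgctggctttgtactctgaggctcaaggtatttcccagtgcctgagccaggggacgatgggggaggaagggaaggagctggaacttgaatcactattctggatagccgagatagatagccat
The Igfbp1 sequence held the forkhead core at positions -172 and -106 from the start site and CAAAACAA at -108, so the latter overlaps the second forkhead match. The Igf1 sequence held 1 forkhead core, at -181, and no CAAAACAA. Both strands of the RefSeq windows, which run 300 bases from 250 before to 50 after a start, were searched for each motif. All 6 genes had a window, Igfbp2 had 2 and Igfals had 3. TGTTT lay in 50.54% of the 32851 mouse windows and CAAAACAA in 2.51%. The core CAAAACAA was found in none of the windows of the other 5 genes. It was searched for as the core of the insulin response element already known at Igfbp1, so its match there is no independent result. TGTTT was also found in the second windows of Igfbp2 and Igfals. The longer forkhead motif TGTTTAC (3.65% of windows) was found in the second Igfals window. TGACGTCA, the cyclic AMP response element (1.79% of windows), was found in none of the 6 genes' windows. The short element TGACG (20.81%) and the glucocorticoid receptor motif AGAACA (18.97%) were absent from the Igfbp1 window. A match of letters describes the window only, and whether a factor bound there was not measured.

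The probe sets of Igfbp1, Igf1 and Igfbp4 had mean levels of 10.33, 8.71 and 8.60, which lay above those of 98.8%, 94.2% and 93.6% of all genes on the array. Igfbp3 (6.30), Igfals (6.18) and Igfbp2 (4.87) lay above 76.1%, 75.1% and 65.3%. These ranks place each probe set in the whole table and are no comparison of transcript amounts between the 6 genes.

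Foxa2 itself was lower with its hairpin in 12 of 12 pairs of arrays, but by an average of only 0.43 on the log2 scale (-0.43, SE 0.07, limma adjusted p = 0.0613; 0.0194 with the experiment as a block). By experiment the difference was -0.51, -0.66 and -0.12, so the knockdown at the RNA level was partial and smallest in experiment 3. Hepatocyte markers were high, with Alb at 13.07 and Apob at 11.71, and none of the 9 measured lay below the median gene level of 3.23. Of the markers of other liver cells, 7 of 9 Kupffer, 5 of 9 stellate, 3 of 9 endothelial, 2 of 5 cholangiocyte and 5 of 5 lymphocyte genes lay below that median. Those clearly above it included Cd68 (9.12), Sox9 (7.18), Cdh5 (6.94), Lyve1 (6.72) and Dcn (6.17). Array medians ran from 3.21 to 3.28.

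**Figure D1:**
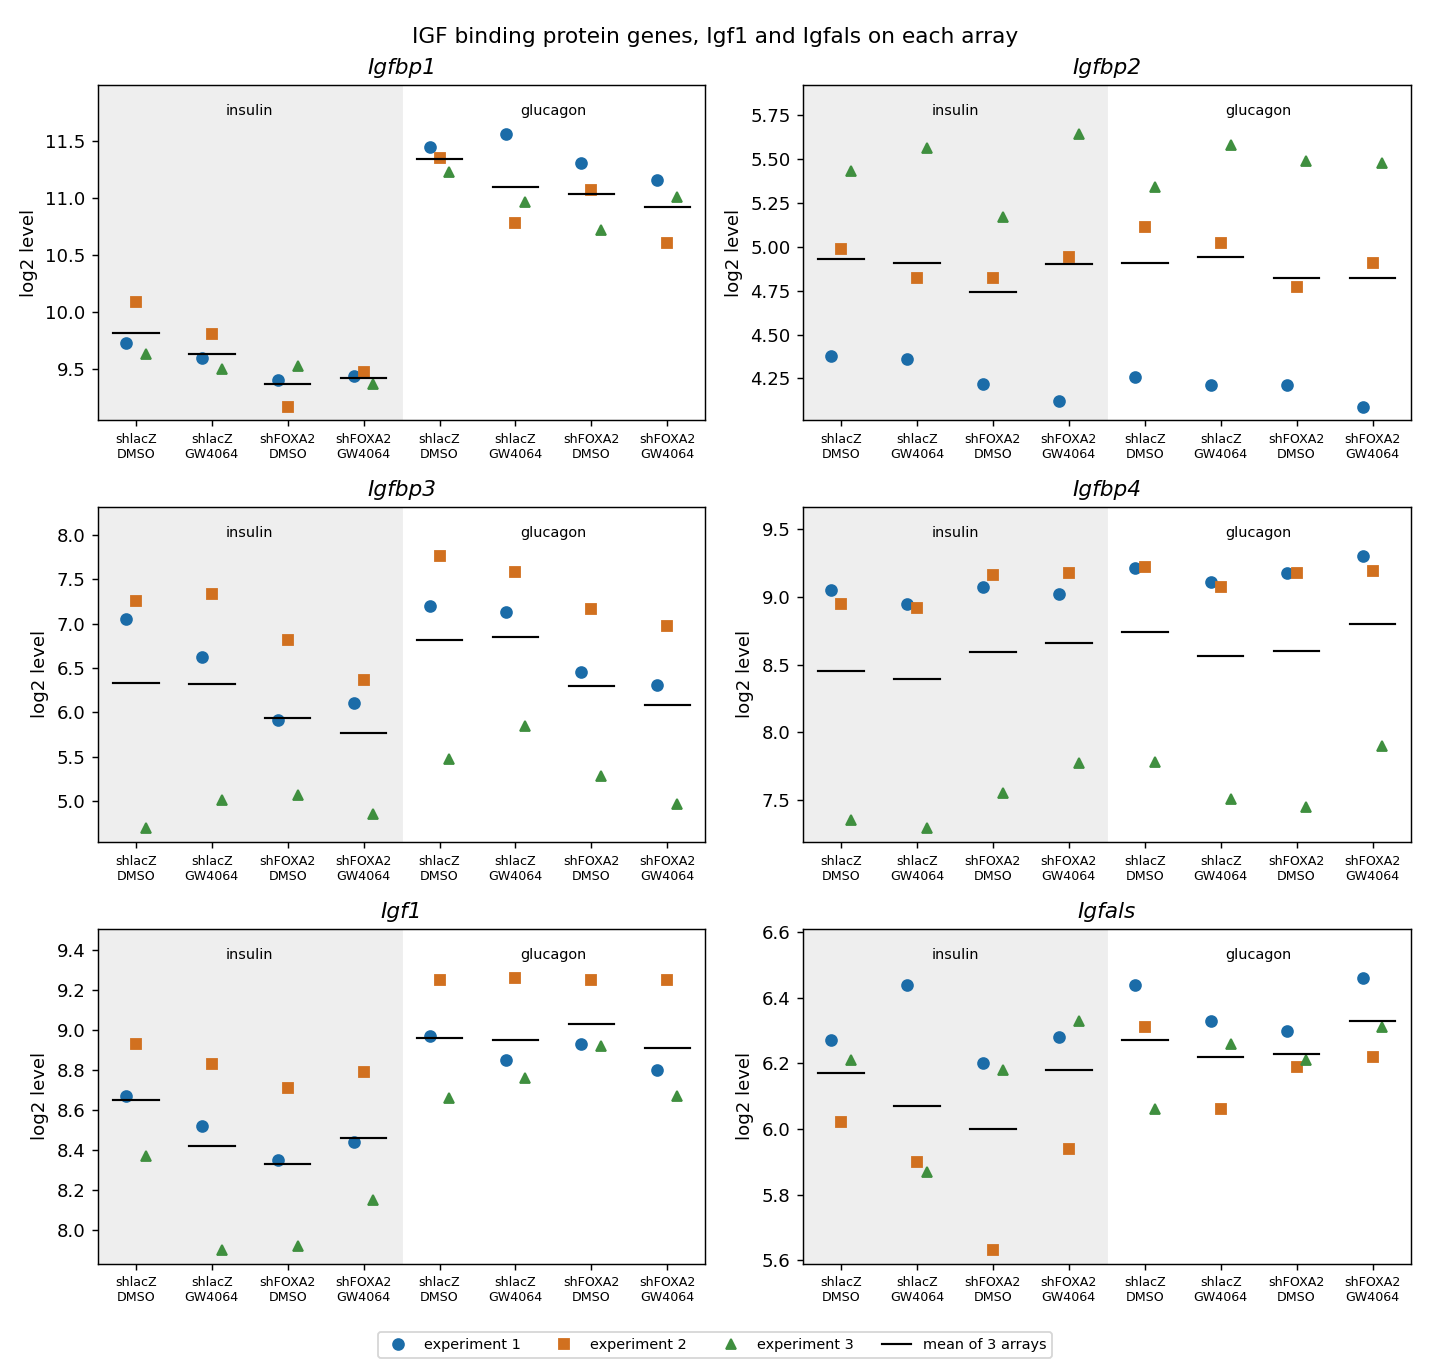
Deposited log2 level (vertical axis, a separate scale in each panel) of the 6 genes in the 8 groups (horizontal axis, hairpin and drug, insulin on grey and glucagon on white). Symbols are single arrays by experiment and lines are means of 3 arrays; Igfbp1 separates by hormone, whereas Igfbp2, Igfbp3 and Igfbp4 separate mainly by experiment.

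The first question was whether the hormone changed these genes. Igfbp1, the binding protein gene of fasting, was higher under glucagon than under insulin in every condition. With shlacZ and DMSO its level was 9.73, 10.09 and 9.63 under insulin and 11.45, 11.35 and 11.23 under glucagon (experiments 1, 2 and 3), or 9.82 ± 0.242 against 11.34 ± 0.111 (SD, n = 3). The lowest glucagon array stood above the highest insulin array. The difference of 1.52 (SE 0.19, limma adjusted p = 2.9e-05) corresponds to a 2.88-fold higher signal. With shlacZ and GW4064 it was 9.60, 9.81 and 9.50 under insulin and 11.56, 10.78 and 10.97 under glucagon, a difference of 1.47 (SE 0.19, limma adjusted p = 6.2e-05). With shFOXA2 and DMSO it was 9.40, 9.17 and 9.53 against 11.31, 11.07 and 10.72, a difference of 1.67 (SE 0.19, limma adjusted p = 8.2e-06). With shFOXA2 and GW4064 it was 9.44, 9.47 and 9.37 against 11.16, 10.61 and 11.01, a difference of 1.5 (SE 0.19, limma adjusted p = 4.5e-05). No pair of hormone groups overlapped. Over all 12 insulin arrays the level ran from 9.17 to 10.09 (median 9.52) and over the 12 glucagon arrays from 10.61 to 11.56 (median 11.11).

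Averaged over the 4 conditions, Igfbp1 was 1.54 higher under glucagon (SE 0.09, limma adjusted p = 2.1e-10), a 2.91-fold difference. It was higher in 12 of 12 pairs of arrays from the same experiment, by 0.97 to 1.97. The experiments' means were 1.83, 1.32 and 1.47, so experiment 1 gave the greatest separation. In whole cultures, fewer cells of a type and less RNA per cell cannot be told apart.

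Cell type markers were read in the averaged hormone contrast, which 16.2% of all genes passed. Of the hepatocyte markers, 4 of 9 were also higher under glucagon (Ttr 0.27, Cps1 1.10, Hnf4a 0.97 and Fga 0.89). So was the stellate marker Dcn (0.35), and Sox9, a marker of bile duct cells, was lower (-1.20). The mean of the 9 hepatocyte markers ran from 8.70 to 9.76 under insulin and from 9.16 to 9.96 under glucagon. No Kupffer, endothelial or lymphocyte marker passed without the block. With it, 24.6% of all genes passed. The Kupffer marker Cd68 (0.24), the endothelial marker Cdh5 (0.16) and the stellate markers Lrat (0.19) and Reln (0.25) were then also higher. The endothelial marker Oit3 (-0.32) and the bile duct marker Krt19 (-0.53) were lower. The part of these markers in the differences of the IGF genes was not tested.

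Igf1, the hepatic ligand gene, was also higher under glucagon, by less. With DMSO and the shlacZ hairpin the insulin arrays gave 8.67, 8.93 and 8.37 and the glucagon arrays 8.97, 9.25 and 8.66. With shlacZ and GW4064 it was 8.52, 8.83 and 7.90 against 8.85, 9.26 and 8.76. The hormone groups overlapped in both conditions, although each experiment's glucagon array stood above its own insulin array. With shFOXA2 and DMSO it was 8.35, 8.71 and 7.92 against 8.93, 9.25 and 8.92, and these groups did not overlap. With shFOXA2 and GW4064 it was 8.44, 8.79 and 8.15 against 8.80, 9.25 and 8.67, which overlapped.

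Averaged over conditions the Igf1 difference was 0.50 (SE 0.12, limma adjusted p = 0.00616), a 1.41-fold higher signal, and 12 of 12 pairs were higher, by 0.30 to 1.00. The experiments gave 0.39, 0.44 and 0.67. In single conditions the differences were 0.31, 0.54, 0.70 and 0.45 in the order above and none passed, at limma adjusted p = 0.625, 0.364, 0.129 and 0.486. With the experiment as a block all 4 passed, at adjusted p = 0.0432, 8.0e-04, 3.4e-05 and 0.00383. The calls with shlacZ and DMSO and with shFOXA2 and GW4064 were lost with a random block (adjusted p = 0.285 and 0.108). That fit gave all genes the same correlation of 0.193 between arrays of an experiment. Both calls were also lost in the blocked fit without experiment 1 (0.217 and 0.0612) or experiment 2 (0.286 and 0.103). Without experiment 1 the averaged difference was 0.55 and the unblocked test no longer passed (adjusted p = 0.119). With the block and without experiment 1 it passed (adjusted p = 6.3e-05).

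Igfbp3, the binding protein of the ternary complex, had insulin levels from 4.69 to 7.34 (median 6.23) and glucagon levels from 4.97 to 7.76 (median 6.71), which overlapped almost wholly. Within experiments it was higher under glucagon in 12 of 12 pairs, by 0.12 to 0.82, and the experiments' means were 0.35, 0.43 and 0.48. The averaged difference of 0.42 (SE 0.39) did not pass the unblocked limma test (adjusted p = 0.603) and passed with the experiment as a block (block SE 0.092, adjusted p = 0.0014). In the blocked fit it also passed without any 1 of the experiments, at adjusted p from 0.00177 to 0.0372. With the experiment as a random block it did not (adjusted p = 0.255).

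Igfals, the acid labile subunit gene, lay between 5.63 and 6.44 under insulin (median 6.19) and between 6.06 and 6.46 under glucagon (median 6.28). The averaged difference was 0.16 (SE 0.08, 95% interval -0.01 to 0.33, limma adjusted p = 0.238; 0.0574 with the block), with 9 of 12 pairs higher. Experiment 2 gave 0.32 and the other experiments 0.09 and 0.06. With the block and without experiment 3 the difference was 0.21 and passed (adjusted p = 0.0236). It did not pass without experiment 1 (0.19, adjusted p = 0.137) or experiment 2 (0.08, adjusted p = 0.586).

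Igfbp4, a binding protein gene of many tissues, lay between 7.29 and 9.18 under insulin and between 7.45 and 9.30 under glucagon. The averaged difference was 0.15 (SE 0.33, limma adjusted p = 0.859), and 11 of 12 pairs were higher, by at most 0.43. It passed with the block (block SE 0.044, adjusted p = 0.0132), and no longer so when experiment 1 (0.129) or experiment 2 (0.0849) was also left out, nor with a random block (0.685). With shlacZ and DMSO it was 9.05, 8.95 and 7.35 against 9.21, 9.22 and 7.78, a difference of 0.28 that passed with the block (adjusted p = 0.0414) and not with a random block (0.751). In the blocked fit it did not pass without experiment 1 (0.111), experiment 2 (0.255) or experiment 3 (0.211). The pairs of experiments 1, 2 and 3 were 0.15, 0.27 and 0.43. In the unblocked fit this difference was -0.26 without the insulin array of experiment 3, and 0.76 without the glucagon array of that experiment. Leaving out 1 array of a pair there also shifts a group mean by the low level of experiment 3, so these values do not give the direction within experiments.

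Igfbp2, the other binding protein gene examined, showed a hormone difference of 0.00 (SE 0.23, limma adjusted p = 0.997; 0.987 with the block). The blocked 95% interval ran from -0.11 to 0.11. Pairs ran from -0.17 to 0.32, with 4 of 12 higher under glucagon.

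By count, 1 of the 6 genes (Igfbp1) passed in each of the single hormone conditions, where 4.68% (shlacZ, DMSO), 3.09% (shlacZ, GW4064), 4.79% (shFOXA2, DMSO) and 3.49% (shFOXA2, GW4064) of all genes passed. Averaged over conditions 2 of 6 passed (Igfbp1 and Igf1) beside 16.2% of all genes. With the block the single conditions gave 3, 2, 2 and 2 of 6 in the same order, beside 11.2%, 8.41%, 11.3% and 9.14% of all genes. The averaged contrast with the block gave 4 of 6 (Igfbp1, Igf1, Igfbp3 and Igfbp4), beside 24.6%.

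**Figure D2:**
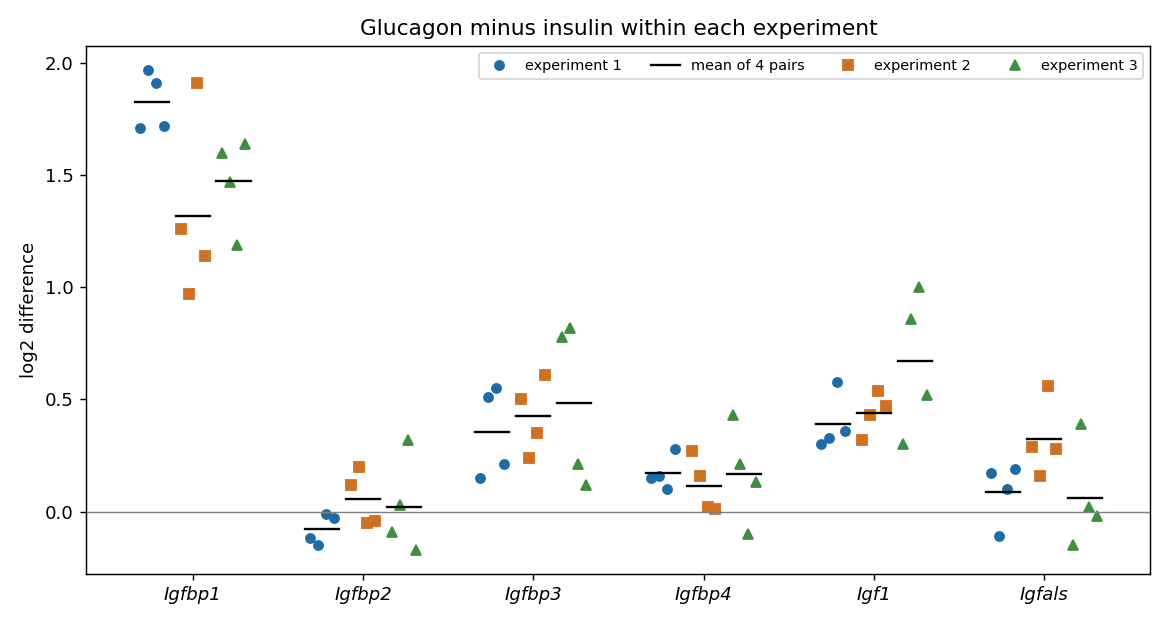
Glucagon minus insulin (vertical axis, log2 difference) for each of the 12 pairs of arrays from the same experiment, hairpin and drug, by gene (horizontal axis). Symbols are pairs and black lines are means of 4 pairs; all Igfbp1, Igf1 and Igfbp3 pairs lie above 0, and Igfbp2 pairs lie on both sides of it.

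The second comparison asked whether the Foxa2 hairpin changed the 6 genes or their hormone response. Igfbp3 showed the greatest hairpin difference of the 6. Under insulin with DMSO it was 7.05, 7.26 and 4.69 with shlacZ and 5.91, 6.82 and 5.07 with shFOXA2 (experiments 1, 2 and 3). Under glucagon with DMSO it was 7.20, 7.76 and 5.47 against 6.45, 7.17 and 5.28. The groups overlapped because experiment 3 was low in both, and the shFOXA2 array was the lower of its pair except in experiment 3 under insulin. With GW4064 the insulin values were 6.62, 7.34 and 5.01 against 6.10, 6.36 and 4.85. The glucagon values with GW4064 were 7.13, 7.58 and 5.84 against 6.31, 6.97 and 4.97. In both of these conditions every shFOXA2 array stood below the shlacZ array of its experiment.

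Over conditions Igfbp3 was lower with shFOXA2 in 11 of 12 pairs, from -1.14 to 0.38, with an average of -0.56 (SE 0.39, limma adjusted p = 0.874). With the experiment as a block the same difference passed (block SE 0.092, 95% interval -0.75 to -0.36, adjusted p = 0.0205). That SE treats the pairs of 1 pool of cells as separate and is not the spread of the difference between experiments. The experiments' means were -0.80, -0.65 and -0.21, and experiment 3, where Foxa2 itself differed least, gave the smallest. The part of the depth of knockdown in this was not tested. In the blocked fit without experiment 3 the difference was -0.73 (adjusted p = 0.00313). It did not pass without experiment 1 (-0.43, adjusted p = 0.295) or experiment 2 (-0.51, adjusted p = 0.483), nor with a random block (adjusted p = 0.486). The separate hairpin differences under insulin (-0.48) and glucagon (-0.64) did not pass, with the block at adjusted p = 0.228 and 0.256.

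Igfbp1 was lower with shFOXA2 in 11 of 12 pairs, from -0.92 to 0.04. Under insulin with DMSO it was 9.37 ± 0.185 with shFOXA2 (SD, n = 3), below the 9.82 ± 0.242 of shlacZ, and the 3 arrays of each did not overlap, nor did those under insulin with GW4064. Both glucagon conditions overlapped. How many of all genes have groups that do not overlap was not counted, so this describes the arrays only. The hairpin difference under insulin was -0.33 and did not pass (limma adjusted p = 0.665; 0.334 with the block). The averaged difference was -0.29 (SE 0.09, limma adjusted p = 0.721; 0.238 with the block), a change in signal of -18.0%. The experiments gave -0.26, -0.43 and -0.17. The hormone difference of Igfbp1 with shFOXA2 exceeded that with shlacZ by 0.09 (SE 0.19, 95% interval -0.30 to 0.48, limma adjusted p = 1), so any loss of the hormone difference beyond 0.30 lay outside the interval.

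The remaining averaged hairpin differences were 0.13 for Igfbp4, -0.10 for Igfbp2, -0.07 for Igf1 and 0.01 for Igfals. Their unblocked SEs were 0.33, 0.23, 0.12 and 0.08 in this order. With the block the SEs were 0.044, 0.052, 0.048 and 0.059 and the limma adjusted p-values 0.302, 0.488, 0.642 and 0.983. None passed in limma with or without the block. Markers of non-parenchymal cells gave no passing hairpin difference either. Their averaged differences ran from -0.17 to -0.01 for Kupffer, -0.12 to 0.10 for stellate and -0.10 to 0.12 for endothelial genes.

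None of the 6 genes passed in the hairpin contrasts by limma without the block, where 0.00451% of all genes passed under insulin, 0% under glucagon and 0.00902% on average. With the block, 1 of 6 (Igfbp3) passed on average beside 0.0766% of all genes, or 17 genes. At an unadjusted p under 0.05, 6.51%, 4.22% and 6.2% of all genes passed in the 3 unblocked contrasts. The terms for hormone by hairpin, hormone by GW4064 and hairpin by GW4064 called 0 of 6 and 0%, 0% and 0% of all genes by limma, with 4.15%, 2.63% and 3.18% at an unadjusted p under 0.05.

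**Figure D3:**
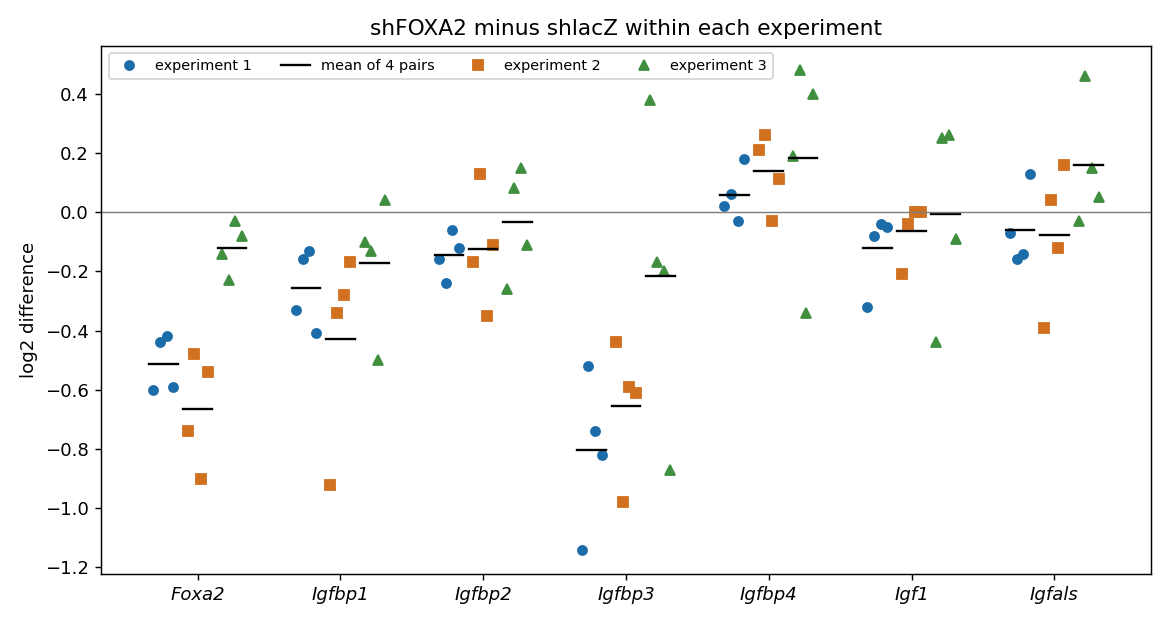
shFOXA2 minus shlacZ (vertical axis, log2 difference) for each of the 12 pairs of arrays from the same experiment, hormone and drug, for Foxa2 and the 6 genes (horizontal axis). Symbols are pairs and black lines are means of 4 pairs; the Foxa2 and Igfbp3 means of experiment 3 (-0.12 and -0.21) lie nearer 0 than those of experiments 1 and 2.

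GW4064, which activates FXR, gave averaged differences of -0.12 for Igfbp1 (SE 0.09, 95% interval -0.31 to 0.07), -0.09 for Igfbp3 (-0.91 to 0.74) and -0.06 for Igf1 (-0.32 to 0.20). Those of Igfbp2, Igfals and Igfbp4 were 0.04, 0.03 and 0.00. All 6 had a limma adjusted p of 1. Igfbp1 was lower with GW4064 in 8 of 12 pairs and Igf1 in 6 of 12. None of the 6 genes passed under insulin, under glucagon or on average, where 0%, 0% and 0.00902% of all genes passed, and 2.5%, 3.54% and 3.45% did at an unadjusted p under 0.05. With the block the intervals were -0.30 to 0.06 for Igfbp1, -0.28 to 0.11 for Igfbp3 and -0.16 to 0.04 for Igf1.

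In order of level, the 4 glucagon groups of Igfbp1 came first. The group means were 11.34 (shlacZ, DMSO), 11.10 (shlacZ, GW4064), 11.04 (shFOXA2, DMSO) and 10.92 (shFOXA2, GW4064), and neighbours in this order differed by less than the larger SD of the pair. A gap of 1.10 separated them from the insulin groups, at 9.82 (shlacZ, DMSO), 9.63 (shlacZ, GW4064), 9.42 (shFOXA2, GW4064) and 9.37 (shFOXA2, DMSO). Among these, only the step from 9.63 to 9.42 exceeded the larger SD, and those groups did not overlap. How often this occurs over all genes was not counted. Igf1 also had its 4 glucagon groups on top, from 9.03 (shFOXA2, DMSO) to 8.91 (shFOXA2, GW4064), and its insulin groups below, from 8.65 (shlacZ, DMSO) to 8.33 (shFOXA2, DMSO). No neighbours in the Igf1 order differed beyond their SD.

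The group means of Igfbp3 ran from 6.85 (shlacZ, glucagon, GW4064) to 5.77 (shFOXA2, insulin, GW4064) and those of Igfals from 6.33 (shFOXA2, glucagon, GW4064) to 6.0 (shFOXA2, insulin, DMSO). Igfbp4 ran from 8.80 (shFOXA2, glucagon, GW4064) to 8.39 (shlacZ, insulin, GW4064) and Igfbp2 from 4.94 (shlacZ, glucagon, GW4064) to 4.74 (shFOXA2, insulin, DMSO). No step between neighbours exceeded the larger SD in these 4 genes.

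Experiments separated the binding protein genes more than any treatment did, except for Igfbp1. Igfbp2 lay between 4.09 and 4.38 in experiment 1, 4.77 and 5.11 in experiment 2 and 5.17 and 5.64 in experiment 3, with no overlap (8 arrays each). Igfbp4 lay between 8.95 and 9.30, 8.92 and 9.22, and 7.29 and 7.90, so experiment 3 stood apart. Igfbp3 lay between 5.91 and 7.20, 6.36 and 7.76, and 4.69 and 5.84, and experiment 3 was again the lowest, below every array of the other experiments.

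As a share of the sum of squares over the 24 arrays, the experiment accounted for 96.0% in Igfbp4, 94.9% in Igfbp2 and 81.2% in Igfbp3, against a median of 30.0% over the 7510 genes with a mean level of 5 or more. It accounted for 44.6% in Igf1, 40.2% in Igfals and 1.3% in Igfbp1. The hormone accounted for 89.9% in Igfbp1, 44.3% in Igf1 and 16.2% in Igfals, against a median of 16.6%. In Igfbp3 it accounted for 5.0% and the hairpin for 8.8%. The Igfbp1 hormone share lay above that of 98.7% of those genes, and the experiment shares of Igfbp4 and Igfbp2 above 99.8% and 99.6%.

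Other genes also differed by experiment. Igfbp7, a further secreted binding protein gene, had means of 8.49, 7.32 and 6.62 in experiments 1, 2 and 3. The endothelial marker Cdh5 had 7.85, 6.41 and 6.56. The smooth muscle actin gene Acta2, listed as a stellate marker, had 7.06, 5.42 and 4.74. Of the other stellate markers, Lrat had 3.21, 2.96 and 2.78, Dcn 6.29, 5.91 and 6.32 and Reln 3.31, 3.79 and 4.04. The stellate list thus had no common direction. The mean of the 9 endothelial markers was 4.82, 4.04 and 4.23, that of the 9 stellate markers 3.91, 3.65 and 3.64, and that of the 9 hepatocyte markers 9.36, 9.03 and 9.75. The experiment means were 4.23, 4.92 and 5.46 for Igfbp2, 6.60, 7.16 and 5.15 for Igfbp3 and 9.11, 9.11 and 7.58 for Igfbp4. The part of these cells in the levels of Igfbp2, Igfbp3 and Igfbp4 was not tested.

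**Figure D4:**
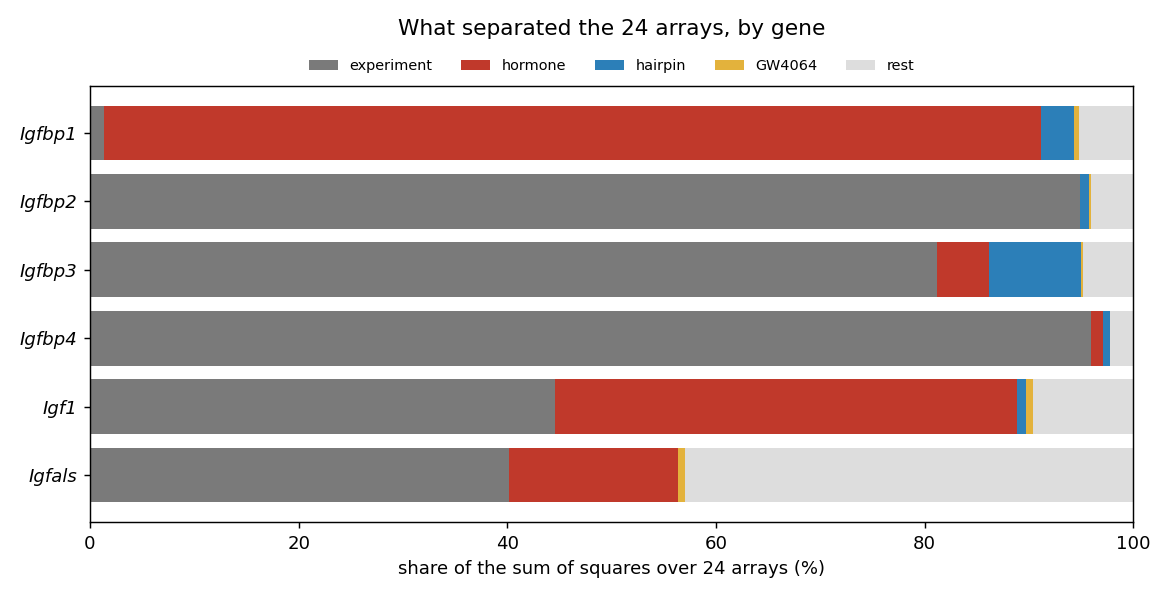
Share of the sum of squares over 24 arrays (horizontal axis, %) taken by experiment, hormone, hairpin, GW4064 and the rest, for each of the 6 genes (vertical axis). The hormone takes 89.9% in Igfbp1 and the experiment takes 96.0% in Igfbp4 and 94.9% in Igfbp2.

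Genes that act with these 6 were read from lists of the pathway, in the averaged hormone contrast. Among IGF ligands and receptors 2 of 5 were higher under glucagon and none lower. These were the insulin receptor gene Insr (0.37, limma adjusted p = 8.3e-05) and the IGF1 receptor gene Igf1r (0.38, adjusted p = 0.0316), whose level of 3.17 lay below the median gene. Igf2 was at 2.52, also below that median. The list median was 0.03 beside 0.01 over all genes, of which 16.2% passed in this contrast.

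Among growth hormone signalling genes 3 of 9 were higher and 2 lower, beside 16.2% of all genes passing, with a median of 0.12. With the block, where 24.6% of all genes passed, 4 were higher and 2 lower. The receptor gene Ghr (0.18), Stat5b, which carries the signal to the Igf1 gene (0.24), and Socs3, a feedback inhibitor of cytokine receptors (0.54), were higher. The STAT5-responsive feedback genes Socs2 (-0.99) and Cish (-0.99) were lower. Their limma adjusted p-values ran from 1.5e-06 (Cish) to 0.0421 (Stat5b).

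In the relay from insulin and IGF receptors 7 of 14 genes were higher and 1 lower, beside 16.2% of all genes passing, with a median of 0.17. The receptor substrate Irs2 was 2.60 higher (limma adjusted p = 1.6e-12) and Irs1 0.99 higher. The mean level of Irs1, 3.18, lay below the median gene. Grb14, an adaptor that inhibits the insulin receptor, was 0.91 higher. The kinase subunits Pik3r1 (0.56) and Pik3ca (0.21) were higher and Pdpk1 was lower (-0.20). The forkhead genes Foxo1 (0.58) and Foxo3 (0.48) completed the 7.

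Of 9 measured genes for factors known at the Igfbp1 promoter, 5 were higher and 1 lower under glucagon, beside 16.2% of all genes passing, with a median of 0.48. With the block, where 24.6% of all genes passed, 3 were lower, Foxa3 (-0.19) and Hif1a (-0.12) being added. Foxo1 and Foxo3 belong to this list too. The coactivator gene Ppargc1a was 3.76 higher (limma adjusted p = 3.8e-09), Foxa1 1.21 and Foxa2 1.19, and the glucocorticoid receptor gene Nr3c1 was lower (-0.50). The mean of Ppargc1a under insulin was 3.22, near the median gene level of 3.23. In the averaged hairpin contrast none of the 9 passed without the block and Foxa2 passed with it. The other hairpin differences in the list ran from -0.02 (Usf1) to 0.11 (Ppargc1a).

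None of 4 other binding protein genes and none of 7 genes for IGFBP proteases and their inhibitors passed the unblocked hormone test. Of all genes, 16.2% passed it, and 24.6% did with the block. The greatest differences were 0.26 for Igfbp7 (limma adjusted p = 0.754; 0.0207 with the block) and -0.36 for the protease gene Adam12 (0.591; 4.6e-04 with the block). Igfbp5 (2.55), the next coding gene beside Igfbp2 on chromosome 1 in RefSeq, and Igfbp6 (3.13) lay below the median gene level. Igfbp1 and Igfbp3 are likewise next to each other among the coding genes of chromosome 11. Their averaged hormone differences were 1.54 and 0.42.

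Likeness of pattern was measured by Pearson's r over the 24 arrays after the mean of each experiment was subtracted. All genes share the hormone groups, so genes that differ with the hormone in the same direction give a high r. For Igfbp1, where the hormone took 89.9% of the sum of squares, r mostly restates the hormone difference. Shared regulation was not tested. Among the 7510 genes, those most like Igfbp1 were Hbp1 (0.975), Klhl24 (0.972) and Mat1a (0.970). For Igf1 they were Porcn (0.928), Mrps31 (0.927) and Akap13 (0.926). For Igfbp3 they were Mcoln1 (0.815), Dcaf8 (0.782) and Gtf3c2 (0.746), and for Igfbp4 Rxra (0.867), Gcdh (0.860) and Cdk5 (0.860). Igfals was most like Cyp2d10 (0.764), Grhpr (0.763) and Rhbdd2 (0.756). Igfbp2 was most like Fis1 (0.653), Prelid2 (0.652) and Cdk2ap2 (0.632), the lowest values of the 6. Within the set, Igfbp1 and Igf1 were the most alike (0.868), followed by Igfbp1 and Igfbp3 (0.623), and the value for Igfbp3 and Igfbp4 lay near 0 (-0.014).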

How the data were processed

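The deposited values of 24 arrays are on a log2 scale, judged from their range of 1.46 to 13.5. Per the labels and the series' design text, GeneSpring processed them, and how background was corrected and arrays normalized is not given in these sources. Of 41345 probe sets, 23521 had 1 gene symbol, 1814 several and 16010 none. Symbols were updated through RefSeq for 23328 of them. The probe set of highest mean stood for a gene, giving 22180 genes. limma 3.58.1 in R 4.3.3 fitted 8 group means (lmFit, eBayes, 16 residual degrees of freedom) with Benjamini-Hochberg adjustment over all genes and a threshold of 0.05. It was run on simulated data without differences between experiments, which cannot show how it behaves on arrays that share a pool of cells.

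The labels number the experiments, each a pool of cells, and deviations of same-experiment arrays correlated at 0.374 to 0.698 (84 pairs), so the numbers pair the arrays. The fit with the experiment as a block has 14 residual degrees of freedom. The random block used 1 correlation for all genes, 0.193, so it allows less than the block for the experiment in Igfbp2, Igfbp3 and Igfbp4. A call lost with it does not show that a difference within experiments is absent. Unblocked p-values treat arrays that share cells as independent. Blocked values rest on 3 pools. The block removes the mean level of each experiment, and the pairs of a pool still count as separate. Where a difference varied between pools, the block SE and its p-value may understate the uncertainty.

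The 6 genes and all lists (92 of 98 listed genes measured) were chosen with earlier results of these data known. Listed genes are named where they passed in the averaged hormone contrast, or as the greatest difference where none did. The genes most like each member are the 3 with the highest correlation. Alternatives were other scalings, a filter on dim genes, averaged probe sets, a trended spread, only the compared groups, and leaving out arrays or experiments. Differences of under 1 SE that pass in neither fit have no direction. The number of arrays limits the precision.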

Additional observations from a re-analysis of the deposited data

Results flagged for a closer look

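In 4 comparisons every array pair of 1 group moved one way and every pair of the other moved the opposite way (3 pairs each). One Igfbp4 pair, that of experiment 2 with shFOXA2 under glucagon, moved by 0.00 at the printed precision and above 0 unrounded. These differences between groups were not tested one by one. They were picked for this pattern from a larger number of comparisons of the same kind, and how many would arise by chance was not estimated. The Igfbp4 comparisons share arrays, so they are not separate observations. Means follow, with the pairs of experiments 1, 2 and 3 in brackets. For Igfbp4 under glucagon, GW4064 minus DMSO was -0.17 with shlacZ (-0.10, -0.14 and -0.28) and 0.19 with shFOXA2 (0.12, 0.00 and 0.46). Its hairpin difference with DMSO was 0.14 under insulin (0.02, 0.21 and 0.19) and -0.13 under glucagon (-0.03, -0.03 and -0.34). Under glucagon that hairpin difference was -0.13 with DMSO and 0.23 with GW4064 (0.18, 0.11 and 0.40). For Igf1 under insulin, GW4064 minus DMSO was -0.24 with shlacZ (-0.15, -0.10 and -0.47) and 0.13 with shFOXA2 (0.09, 0.08 and 0.22). Averaged over hormones, the term for hairpin by GW4064 was tested by limma, and gave 0.25 for Igfbp4 (adjusted p = 1; 0.835 with the block) and 0.12 for Igf1 (adjusted p = 1; 0.929 with the block). Averaged over drugs, the term for hormone by hairpin gave -0.16 for Igfbp4 (adjusted p = 1; 0.747 with the block).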

How the results depend on the processing

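Over 35 alternatives, 2892 values of the 6 genes in the 14 contrasts kept their direction where they had one and their side of the threshold, 10 newly passed, 1 (Igf1 without experiment 1) no longer passed and 1 reversed. The reversed value was that of Igfbp4 with shlacZ and DMSO, in the unblocked fit. Its hormone difference of 0.28 became -0.264 without the insulin array of experiment 3 and 0.761 without the glucagon array of that experiment. These values were the range over left-out arrays and experiments. The Igfbp4 pairs within experiments in that condition were 0.15, 0.27 and 0.43. Igfbp3 in that condition likewise went from 0.48 to -0.344 without the insulin array of experiment 3. Its difference was under 1 unblocked SE (0.79), so it was counted as without direction. In the other single hormone conditions the lowest values were also negative. They were -0.128, -0.066 and -0.148 for Igfbp3 and -0.369, -0.514 and -0.302 for Igfbp4, and none was counted as reversed. Igfbp1 passed in each single hormone condition and on average under every alternative run. With the replicate block the count of the 6 genes passing went from 1 to 3 (shlacZ, DMSO), 2 (shlacZ, GW4064), 2 (shFOXA2, DMSO) and 2 (shFOXA2, GW4064), from 2 to 4 in the averaged hormone contrast and from 0 to 1 in the averaged hairpin contrast. A random replicate block gave 2 (shlacZ, GW4064) and 2 (shFOXA2, DMSO), and elsewhere the unblocked counts: 1 (shlacZ, DMSO), 1 (shFOXA2, GW4064), 2 in the averaged hormone contrast and 0 in the averaged hairpin contrast. Leaving out single arrays or whole experiments gave 1 to 2 genes in the averaged hormone contrast. In an alternative chosen after seeing the data, the block without experiment 3 gave 5 genes in the averaged hormone contrast and 1 in the averaged hairpin contrast, whereas without experiment 1 or experiment 2 it gave 3 and 0. The gain with the block went with smaller standard errors (Igfbp3, 0.39 to 0.092). Over all genes, the averaged hormone contrast called 3600 genes and 5454 with the block, and the averaged hairpin contrast 2 and 17.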
